A study of Bos taurus with 8 samples.

Results

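The genes described here are 10 fibroblast growth factor (FGF) genes of the bovine testis, 4 receptors (FGFR1, FGFR2, FGFR3 and FGFR4) and 6 secreted ligands (FGF1, FGF2, FGF7, FGF9, FGF10 and FGF18). They were taken by name from the gene count table, in which all 10 were listed among 30983 genes. Testicular lobules of Chinese Red Steppes cattle, a dual-purpose breed of northeast China, were compared between immature testes from 3 calves castrated at 1 day after birth and mature testes from 3 bulls slaughtered at 24 months, with 1 oligo(dT)-selected RNA-seq library per animal and no treatment in either group. In this design age cannot be told apart from castration or slaughter as the source of the tissue.

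FGF ligands bind receptor tyrosine kinases together with heparan sulfate chains on the cell surface, and the receptors pass the signal through docking proteins to the RAS-ERK cascade, whose targets include the Sprouty inhibitors that damp the same pathway. In the mouse, FGF9 and its receptor FGFR2 are needed for the gonad to become a testis, and FGF2 is a standard additive for the culture of spermatogonial stem cells. FGF7 and FGF10 are known in many organs as signals from mesenchyme to epithelium through an epithelial splice form of FGFR2. Levels are given in CPM, which are counts for each 1e+06 counts of a library after TMM scaling. A gene was called lower or higher in mature testes where edgeR's quasi-likelihood test gave a p below 0.05 after Benjamini-Hochberg adjustment and the level differed by more than 1 on the log2 scale.

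Library totals ran from 14139087 to 15846257 counts. Some libraries were unlike the others of their age. At a level of at least 5 CPM, 194 genes in immature replicate 1 and 170 in immature replicate 3 exceeded both remaining libraries of the group more than 3-fold, whereas the other libraries had 11 to 21 such genes. The 3 libraries of a group are from separate animals and differed by more than counting error (chi-square per degree of freedom 9.60 to 38.84 between pairs). Markers of spermatids summed to 4.09 to 4.54 CPM in the immature and 5403 to 9192 CPM in the mature libraries, and markers of Sertoli cells, the supporting cells of the tubules, to 9280 to 12797 CPM and 1505 to 1663 CPM. Of 19972 genes tested, 30.4% were called lower and 31.7% higher in mature testes, 62.0% in all. In whole tissue, fewer cells of a type and less RNA per cell cannot be told apart.

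FGFR1, a receptor widely used by mesenchymal cells, fell most of the 10 genes. Its level was 460.4, 514 and 430.3 CPM in immature replicates 1, 2 and 3, and 31.8, 30.2 and 20.6 CPM in mature replicates 1, 2 and 3. Every immature library lay far above every mature library. The mean fell 17.0-fold, from 468 ± 42.3 to 27.5 ± 6.09 CPM (SD, n = 3 per group), with a log2 fold change of −4.09 (SE 0.19, adjusted p = 2.89e-07 in edgeR's test). Only 1.63% of all genes tested had a lower log2 fold change. With any 1 library left out the log2 fold change of FGFR1 stayed between −4.15 and −3.86.

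FGFR2, the receptor with an epithelial and a mesenchymal splice form, changed much less. It was at 79.0, 49.8 and 76.8 CPM in the immature libraries and at 41.5, 37.4 and 26.4 CPM in the mature libraries. The groups did not overlap, although immature replicate 2 was close to mature replicate 1. The mean was 68.5 ± 16.3 against 35.1 ± 7.81 CPM (SD, n = 3), a log2 difference of −0.96 (SE 0.23, adjusted p = 0.00429 in the same edgeR test), so that FGFR2 passed on the adjusted p, missed the fold threshold and was not called. Its place beside the threshold depended on the scaling and the libraries: it was called at −1.17 with upper-quartile factors, at −1.02 with library totals alone, at −1.16 without immature replicate 2 and at −1.04 without mature replicate 1, and stood at −0.51 with an adjusted p = 0.0892 from edgeR without both immature replicates 1 and 3. The gene count does not separate the splice forms. None of the 4 regulators of FGFR exon choice that were listed (ESRP1, ESRP2, RBFOX2 and PTBP1) was called, beside 62.0% of all genes tested. PTBP1, at −0.90 (adjusted p = 5.43e-05 in edgeR's test), missed only the fold threshold, like FGFR2. In immature replicates 1, 2 and 3 ESRP1 had 213, 30 and 35 counts and ESRP2 111, 18 and 24.

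FGFR4 and FGFR3 had few counts at both ages. FGFR4, best known as the receptor of the liver, had 100, 99 and 80 counts in the immature and 20, 11 and 8 counts in the mature libraries. It fell 7.24-fold, from 6.14 ± 0.742 to 0.847 ± 0.363 CPM (SD, n = 3), at a log2 fold change of −2.84 (SE 0.35, adjusted p = 9.84e-05 in edgeR's test). FGFR3, a receptor that restrains growth in cartilage, had 64, 42 and 31 counts in the immature and 25, 11 and 10 counts in the mature libraries. The lowest immature library thus had little more than the highest mature library. FGFR3 fell from 3.02 ± 1.15 to 0.998 ± 0.492 CPM (SD, n = 3), with a log2 fold change of −1.58 (SE 0.44, adjusted p = 0.0101 in edgeR's test). This call was lost without mature replicate 3, where the adjusted p from edgeR was 0.052 and the log2 fold change −1.33. Both genes reached the minimum of the count filter in 3 immature and only 2 mature libraries, and so entered the test through the immature group.

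**Figure D1:**
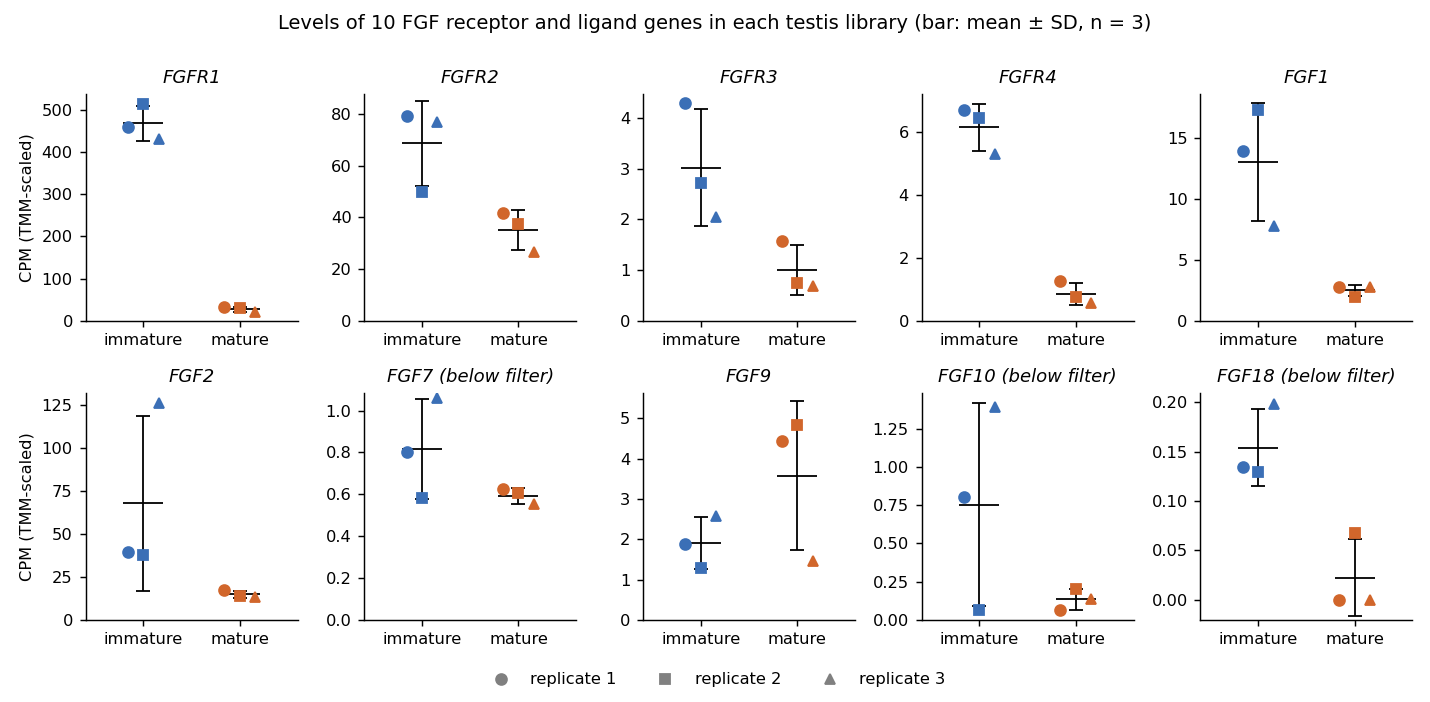
Level of each of the 10 FGF genes in CPM (vertical axis, a separate linear scale per gene) in the 3 immature and 3 mature testis libraries, with a marker shape per replicate number and a bar for the mean ± SD. The 4 receptors, FGF1, FGF2 and FGF18 lie lower in every mature library than in any immature library, FGF2 is far higher in immature replicate 3 (127 CPM) than elsewhere, and the mature libraries of FGF9 spread from 1.45 to 4.83 CPM.

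Among the ligands FGF2, or basic FGF, held most of the reads. Its level was 39.4, 37.5 and 127 CPM in the immature libraries and 17.1, 13.96 and 13.3 CPM in the mature libraries. Immature replicate 3 stood over 3 times above both other immature libraries, and the lowest immature library was still above the highest mature library. The mean fell from 67.8 ± 50.9 to 14.8 ± 2.03 CPM (SD, n = 3), at a log2 fold change of −2.20 (SE 0.51, adjusted p = 0.00654 in edgeR's test), and leaving out immature replicate 3 gave −1.38 (SE 0.16, edgeR adjusted p = 6.44e-05). The SD of the immature group was 24.1 times that expected from counting alone, the widest of the 10 genes. In the same library the fibroblast markers PDGFRA, COL1A1, COL3A1, DCN and LUM summed to 22704 CPM, against 13722 and 9929 CPM in immature replicates 1 and 2. The spermatogonial markers DDX4, DAZL, GFRA1, UCHL1 and ZBTB16 summed to 242.5 CPM there, against 134 and 122.9 CPM, and the 5 endothelial markers to 368 CPM, against 222 and 279.6 CPM. Single markers did not all follow these sums. In immature replicates 1, 2 and 3 PDGFRA had 6194, 5813 and 6733 counts. The endothelial KDR had 1452, 1705 and 1634 counts and VWF 118, 238 and 143. The part of these cells in the FGF2 level was not tested. NUDT6, a gene whose span overlaps that of FGF2 in the RefSeq annotation, had 63, 73 and 58 counts in the immature and 70, 69 and 65 in the mature libraries, and no source used here gives the strand setting of the counting.

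FGF1, or acidic FGF, a ligand that binds all of the FGF receptors, fell as well. It was at 13.9, 17.3 and 7.74 CPM in the immature libraries and at 2.76, 1.95 and 2.76 CPM in the mature libraries. Immature replicate 3, the library with the highest FGF2, had the lowest FGF1 of its group, yet the groups stayed apart. The mean fell 5.22-fold, from 12.99 ± 4.85 to 2.49 ± 0.468 CPM (SD, n = 3), with a log2 fold change of −2.38 (SE 0.34, adjusted p = 0.000217 in edgeR's test). In mature testes the spread of FGF1 was 1.15 times that of counting alone.

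FGF9, the ligand of testis determination in the mouse, was the one member with a higher mean in mature testes, and it was not called. Its counts were 28, 20 and 39 in the immature and 71, 72 and 21 in the mature libraries. Mature replicates 1 and 2 lay above all immature libraries, whereas mature replicate 3 lay within their range. The means were 1.92 ± 0.644 and 3.58 ± 1.85 CPM (SD, n = 3), a log2 difference of 0.90 (SE 0.48, adjusted p = 0.117 in edgeR's test). Without mature replicate 3 the log2 fold change was 1.33 and FGF9 was called higher (adjusted p = 0.0158 from edgeR), while without immature replicate 3, at 1.17, it was not (adjusted p = 0.0755 from edgeR). Mature replicate 3 also had the lowest FGFR1, FGFR2, FGFR3, FGFR4 and FGF2 of its group. For FGFR3 (25, 11 and 10 counts in mature replicates 1, 2 and 3) and FGFR4 (20, 11 and 8) this rests on few counts. FGF1 was not lowest there (2.76, 1.95 and 2.76 CPM). In mature replicate 3 the summed spermatid markers were the highest of the group (9192 CPM, against 5403 and 7482 CPM). Of these 4 markers only PRM1 was highest there (76040, 102312 and 124505 counts in mature replicates 1, 2 and 3). TNP1 was lowest there (3668, 3237 and 2816 counts). The summed fibroblast markers were the lowest of the group (297 CPM, against 762 and 494 CPM). The part of these differences in FGF9 was not tested.

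The remaining ligands had few counts and did not pass the filter, so they were not tested. FGF10 had 12, 1 and 21 counts in the immature and 1, 3 and 2 counts in the mature libraries. Immature replicate 2 was as low as mature testes, so the groups overlapped. The log2 ratio of summed counts, mature over immature, was −2.50, with an exact 95% interval of −4.04 to −1.23 that covers counting error only, while the immature spread was 2.99 times that of counting. FGF7 had 12, 9 and 16 counts in the immature and 10, 9 and 8 in the mature libraries, a log2 ratio of −0.45 (95% counting interval −1.22 to 0.30). A difference in FGF7 was not detectable at this depth. The span of FAM227B, with 0, 2 and 4 immature and 847, 623 and 804 mature counts, overlaps that of FGF7 in the RefSeq annotation. Both genes have counts of their own, but without a known strand setting reads of any shared stretch cannot be told apart. FGF18, a ligand known from bone and cartilage, had 2, 2 and 3 counts in the immature and 0, 1 and 0 in the mature libraries, a log2 ratio of −2.80 with a counting interval of −8.30 to 0.16. A pseudogene, LOC781186, overlaps FGF18 in the RefSeq annotation. It had 270, 340 and 318 counts in the immature and 95, 102 and 60 in the mature libraries and was called lower (log2 fold change −1.85), the direction of the FGF18 counts, and its part in them was not tested.

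Of the 7 genes tested, 5 were called lower in mature testes, beside 30.4% of all genes tested, and 0 were called higher, beside 31.7%. The count at an unadjusted p under 0.05 was also 0 for higher levels, and DESeq2 and limma-voom called 0 higher and 5 lower. All mature libraries lay below all immature libraries for 6 of the 7, beside 40.9% of all genes tested. These counts leave out the 3 ligands below the filter and hold FGFR3 and FGFR4, which passed it through the immature group, so they are given as a description. FGFR1, FGF1 and FGF2, also called lower, reached the minimum of the filter in all 6 libraries. The median log2 fold change of all genes tested was −0.04. Upper-quartile factors put it at −0.24, and the other scalings put it between −0.10 and 0.05.

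**Figure D2:**
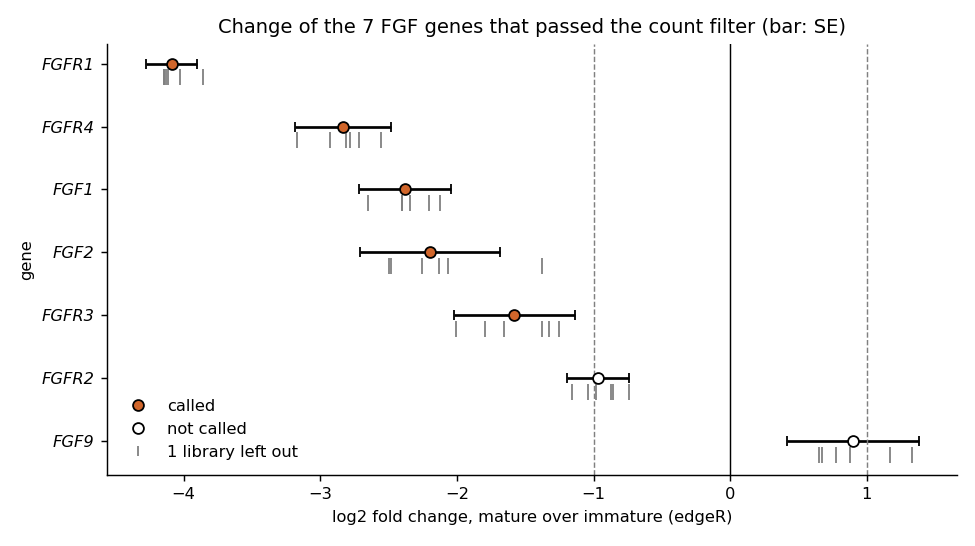
Log2 fold change, mature over immature, of the 7 FGF genes that passed the count filter (points, with SE bars), filled where called, with the values after leaving out each library as grey ticks and the fold threshold as dashed lines. FGFR1 lies farthest from 0 at −4.09, FGFR2 lies at −0.96 beside the threshold, FGF9 alone lies above 0, and 1 tick of FGF2, without immature replicate 3, lies at −1.38.

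The log2 fold changes of the receptors ran from −4.09 to −0.96, so their shares of the receptor reads were also compared. A share of reads depends on transcript length as well as on level, so shares were compared between ages for the same gene and not between genes. The size of a change in a share, or in a ratio of summed reads, still depends on the lengths of the genes summed. FGFR1 held 83.6%, 89.7% and 83.6% of the reads of the 4 receptors in the immature libraries and 41.8%, 43.7% and 42.6% in the mature libraries. FGFR2 held 14.4%, 8.69% and 14.9% in the immature and 54.5%, 54.1% and 54.8% in the mature libraries. The mature libraries thus agreed closely with each other, with an SD of 0.98 percentage points for FGFR1 and 0.333 for FGFR2. The share of FGFR1 was 43.0 percentage points lower in mature testes (mean share 42.7% against 85.7%), and that of FGFR2 was 41.8 points higher. In each case the exact two-sided permutation test over 3 against 3 libraries gave p = 0.1, the smallest it allows. The adjusted p of this test was 0.158 over the 19 shares and ratios compared. FGFR1 and FGFR2 together hold nearly all of the receptor reads, so their shifts in share are not separate results. The mean level of FGFR2 itself was lower in mature testes (35.1 against 68.5 CPM). The share of FGFR3 went from 0.551% ± 0.201 to 1.52% ± 0.499 (exact permutation p = 0.1, adjusted p = 0.158), and that of FGFR4 from 1.12% ± 0.0939 to 1.29% ± 0.313, with groups that overlapped (exact permutation p = 0.6, adjusted p = 0.671).

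The ratio of 2 genes within a library removes the library size. In a comparison of ages it also removes the transcript length, where both ages use the same transcripts. The log2 ratio of FGFR1 to FGFR2 reads was 2.54, 3.37 and 2.49 in the immature and −0.38, −0.31 and −0.36 in the mature libraries. It was 3.15 lower in mature testes, the largest shift among the 6 receptor pairs. The ratio of FGFR1 to FGFR4, the receptors that fell most, moved by −1.18, and that of FGFR1 to FGFR3 by −2.47. The ratio of FGFR2 to FGFR4 was 1.97 higher in mature testes and that of FGFR3 to FGFR4 was 1.30 higher. These pairs were chosen after their values were seen. In 5 of the 6 pairs the groups did not overlap and the exact permutation p was 0.1 (adjusted p = 0.158), while for FGFR2 to FGFR3 they overlapped (difference 0.68, exact permutation p = 0.2, adjusted p = 0.292).

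Among the ligand reads, FGF2 held 69.2%, 65.9% and 90.7% in the immature and 68.4%, 64.6% and 73.1% in the mature libraries. Apart from immature replicate 3, this share was much alike at both ages (exact permutation p = 0.6, adjusted p = 0.671). The share of FGF9 was 3.29%, 2.28% and 1.85% in the immature and 17.8%, 22.4% and 7.95% in the mature libraries, so all mature libraries lay above all immature libraries, including mature replicate 3 (exact permutation p = 0.1, adjusted p = 0.158). In mature replicate 3 the level of FGF9 itself, 1.45 CPM, was within the immature range, while FGF1 and FGF2 were lower than in any immature library. The log2 ratio of FGF9 to FGF2 reads, a pair chosen after its values were seen, went from −4.96 ± 0.616 to −2.22 ± 0.87 (SD, n = 3, exact permutation p = 0.1, adjusted p = 0.158). That of FGF2 to FGF1, chosen in the same way, ran from 1.12 to 4.03 in the immature and from 2.27 to 2.84 in the mature libraries (exact permutation p = 0.9, adjusted p = 0.9). The share of FGF1 ran from 5.55% to 30.4% in the immature and from 9.01% to 15.2% in the mature libraries. That of FGF7 ran from 0.759% to 1.41% in the immature and from 2.51% to 3.03% in the mature libraries. FGF7 had only 8 to 16 counts per library and its level in CPM overlapped between the ages, while FGF1 and FGF2 were lower in mature testes. FGF10 and FGF18 held at most 1.41% and 0.311% of the ligand reads in any library. The log2 ratio of all ligand reads to all receptor reads was −3.27, −3.33 and −1.88 in the immature and −1.61, −1.68 and −1.40 in the mature libraries. It was higher in every mature library, with immature replicate 3, the library of high FGF2, close to them, and the exact permutation p was 0.1 (adjusted p = 0.158).

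**Figure D3:**
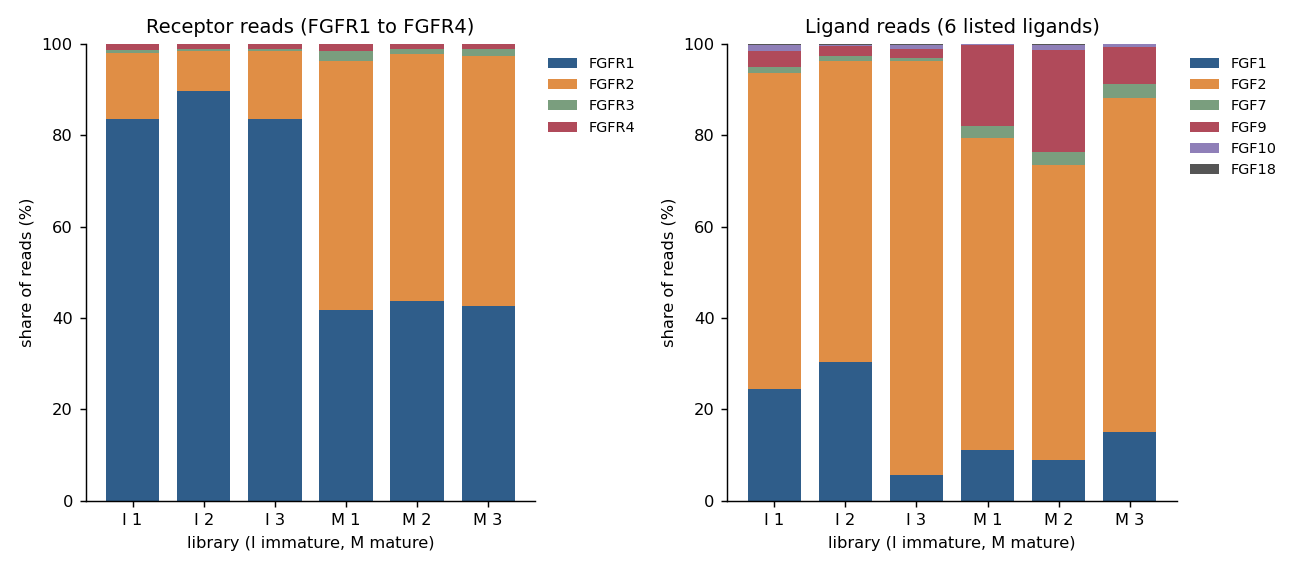
Share of reads (percent) of each of the 4 receptors (left) and of each of the 6 ligands (right) in the immature (I) and mature (M) libraries, stacked to 100%. FGFR1 takes 83.6% to 89.7% of the receptor reads in immature and 41.8% to 43.7% in mature libraries, and FGF9 takes up to 3.29% of the ligand reads in immature and at least 7.95% in mature libraries.

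Other genes of the pathway were read from hand-written lists. Of 102 genes listed 100 were in the table and 84 were tested, of which 46 were called lower and 11 higher in mature testes, beside 30.4% lower and 31.7% higher over all genes tested. The median log2 fold change of the 84 was −1.35 against −0.04 over all genes. Some genes called lower passed the filter through the immature group. Among them were HS6ST2 (6, 3 and 1 counts in the mature libraries), GPC6 (5, 6 and 3) and WNT4 (9, 2 and 6). KSR1 (7, 4 and 2), FST (7, 14 and 6) and FGF11 (9, 12 and 4) were further such genes. CBL, called higher, passed through the mature group (4, 8 and 13 counts in the immature libraries). The counts and medians of these lists are therefore given as a description. The 11 other secreted ligands found (FGF3, FGF4, FGF5, FGF6, FGF8, FGF16 and FGF19 to FGF23) were all below the filter and summed to at most 4.0 CPM in any library. FGF16 had 1, 1 and 34 counts in the immature and 1, 2 and 2 counts in the mature libraries, so its reads came mostly from immature replicate 3, like those of FGF2. This gene was chosen after its values were seen.

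The intracellular FGF homologous factors are not secreted and bind sodium channels rather than FGF receptors. Of the 4, 3 were called lower and 1 higher in mature testes, beside 30.4% and 31.7% of all genes tested. Those called lower were FGF11 (6.05 ± 0.735 to 0.548 ± 0.265 CPM, log2 fold change −3.44), FGF13 (13.3 ± 3.56 to 1.62 ± 0.447 CPM, −3.03) and FGF12 (10.9 ± 2.22 to 1.42 ± 0.474 CPM, −2.92). FGF14 rose from 5.68 ± 2.80 to 20.9 ± 1.90 CPM (SD, n = 3, log2 fold change 1.88, adjusted p = 0.00109 in edgeR's test). It was the one gene called higher among the FGF and FGFR genes tested.

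The lists of proteins that hold or present the ligands are read beside the same 30.4% lower and 31.7% higher of all genes tested. Among coreceptors, the decoy receptor and FGF-binding proteins 4 of 7 tested fell and 0 rose, with FGFRL1, which lacks the kinase domain, at a log2 fold change of −1.49, ANOS1, or anosmin, at −2.29, and the membrane proteins FLRT2 at −1.86 and FLRT3 at −1.62. KL and KLB, the coreceptors of hormone-like FGFs, had at most 30 and 26 counts in any library and were not called. Of 11 heparan sulfate proteoglycans 8 fell and 1 rose. The glypicans GPC3 (−6.00), GPC6 (−5.14) and GPC1 (−3.49) fell and GPC2 rose from 1.77 ± 0.689 to 23.6 ± 9.22 CPM (log2 fold change 3.74, SE 0.38). GPC3 had 1375 counts in immature replicate 1 against 286 and 398 in the other immature libraries, and its log2 fold change was −4.98 without that library. Of 16 heparan sulfate enzymes 10 fell and 1 rose. HS6ST2, which adds sulfate at the 6-O position of the chain, fell from 37.3 ± 7.19 to 0.215 ± 0.154 CPM (log2 fold change −7.36, SE 0.37), and HS6ST1 (−3.93), the chain polymerase EXT1 (−3.94) and the N-sulfotransferase NDST3 (−2.98) fell too, while NDST4 rose (1.32). This list had a median of −1.40 and the proteoglycans one of −2.72.

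Of 11 receptor adaptors 3 fell and 2 rose, with a median of −0.40, and the number that fell was near the 30.4% of all genes tested. FRS2, the docking protein of the FGF receptors, fell from 76.5 ± 5.41 to 27.2 ± 2.40 CPM (log2 fold change −1.49, SE 0.13), while its relative FRS3 rose from 4.75 ± 0.19 to 25.2 ± 4.34 CPM (2.41, SE 0.19). The adaptor SHC1 fell (−2.002) and CBL, a ubiquitin ligase of active receptors, rose (2.10) from at most 13 counts in an immature library. Of 11 genes of the RAS-ERK cascade 3 fell and 2 rose, with a median of −0.18, so that the number that fell was again near the 30.4% of all genes. The scaffold KSR1 (−2.59), with at most 7 counts in a mature library, and the kinases ARAF (−2.18) and MAP2K1 (−1.70) fell. BRAF rose from 127 ± 9.86 to 375 ± 10.3 CPM and MAPK3, or ERK1, from 97.1 ± 4.11 to 323 ± 35.1 CPM.

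All 10 feedback inhibitors were called, 8 lower and 2 higher, with a median of −1.97. Beside them, 62.0% of all genes tested were called in either direction and 30.4% were called lower. Among those called lower, SPRED1 (−1.09) and IL17RD (−1.02), named after their values were seen, lay close to the fold threshold. The scaling moved the call of FGFR2, which also lay beside that threshold. SPRY1 fell from 57.2 ± 1.61 to 6.97 ± 0.366 CPM (log2 fold change −3.04, SE 0.13) and SPRY2 from 33.9 ± 3.997 to 3.59 ± 0.60 CPM (−3.23, SE 0.19). SPRED3, a Sprouty-related protein (2.81), and DUSP4, a phosphatase of ERK (3.37), rose. Of the 3 ETS factors known as FGF targets ETV4 fell (−1.26), ETV1 rose (1.63) and ETV5 was at −0.61 (adjusted p = 0.0513 in edgeR's test). In the list of sex determination genes around FGF9, 6 of 7 tested genes fell and 1 rose, beside 30.4% and 31.7% of all genes tested. WNT4, which FGF9 keeps down in the mouse gonad, was at 747, 70 and 49 counts in the immature and 9, 2 and 6 in the mature libraries and fell (log2 fold change −5.66, SE 1.42, and −3.37 without immature replicate 1). FST, or follistatin (−4.63, and −3.11 without immature replicate 3), and the gonadal factors GATA4 (−2.90) and NR5A1 (−2.78) fell too, and DMRT1, a factor of Sertoli and germ cells, rose (1.34). SRY had 0 counts in every library.

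**Figure D4:**
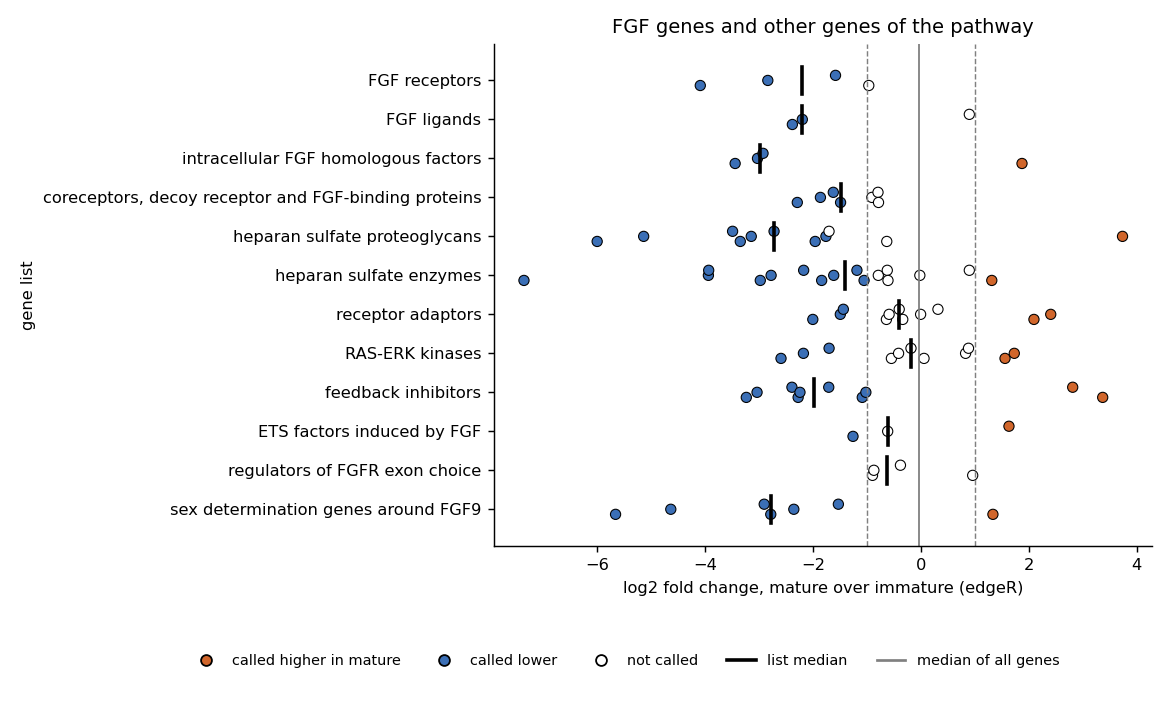
Log2 fold change, mature over immature, of every tested gene in the FGF receptor and ligand lists and in 10 further lists of the pathway (points, coloured by call), with the list median as a black bar, the median of all genes tested as a grey line and the fold threshold as dashed lines. The 2 lists of heparan sulfate proteins have medians of −2.72 and −1.40, and the adaptor and RAS-ERK lists have medians of −0.40 and −0.18.

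Markers of some somatic cells were lower in mature testes, as were FGFR1, FGFR3 and FGFR4, and others were not. The numbers of markers called are read beside 30.4% lower and 31.7% higher over all genes tested. The fibroblast markers summed to 9929 to 22704 CPM in the immature and 297 to 762 CPM in the mature libraries, with 5 of 5 called lower and a median log2 fold change of −4.95. Endothelial markers went from 222 to 368 CPM to 51.2 to 58.4 CPM (5 of 5 lower), and markers of peritubular and smooth muscle cells from 1312 to 2408 CPM to 515 to 549 CPM (4 of 5 lower). Of the 8 Sertoli markers 7 were lower and CLDN11, a tight junction protein, was higher (log2 fold change 3.04). Leydig cell markers overlapped between the ages, at 1762 to 2914 and 1506 to 2837 CPM (1 of 5 lower), and macrophage markers did too, at 96.8 to 158 and 105 to 123 CPM (4 of 5 lower, CD14 higher). All 4 spermatocyte and all 4 spermatid markers were higher in mature testes. Of 5 spermatogonial markers 2 were higher (DDX4 at 4.58 and DAZL at 2.66) and 1 lower (GFRA1 at −2.73). UCHL1 (−0.93) and ZBTB16 (−1.14) were not called. Skeletal muscle markers summed to 16.4 to 25.5 CPM in the immature and 3.38 to 5.70 CPM in the mature libraries (3 of 5 lower). Cartilage markers went the other way, from 16.7 to 47.6 CPM to 80.7 to 112 CPM, with 1 of 4, MATN1, called higher (log2 fold change 5.21). Of the epididymis and duct markers only PAX2 and PAX8 were in the table, and they summed to 96.8 CPM in immature replicate 1, against 14.4 and 11.5 CPM in the other immature and 3.86 to 4.45 CPM in the mature libraries. No marker in the table was at 0 in all libraries of a group. The part of these cell types in the FGF values was not tested.

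Genes with a profile like that of each receptor were sought among 11919 genes with at least 10 CPM in 1 group, as the smallest root mean square difference of log2(CPM + 1) over the 6 libraries after centring each gene. With 2 groups of libraries this measure mostly reads the size of the fall. Closest to FGFR1 were KDELC2 (0.10 log2 units), a protein of the endoplasmic reticulum, UTP14A (0.12), a nucleolar protein, and TIMP2 (0.13), an inhibitor of matrix metalloproteinases that fell from 3040.3 to 210.1 CPM. Closest to FGFR2 were the kinase LRRK2 (0.14), SFXN4 (0.15) and SLA2 (0.16). Closest to FGFR3 were ASS1, an enzyme of arginine synthesis (0.07), TIGD2 (0.12) and C4H7orf55 (0.13), and closest to FGFR4 were GTF2IRD2 (0.04), the DNA glycosylase SMUG1 (0.07) and the lysosomal enzyme MAN2B1 (0.07). The added 1 CPM flattens FGFR3 and FGFR4, so that their neighbours on this scale had smaller log2 fold changes, of −1.13 to −1.22 and −1.98 to −2.31, than the receptors themselves.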

How the data were processed

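Total RNA of testicular lobules was sequenced after oligo(dT) selection. Per the submitters' notes, Fast-QC was used for read quality and Hisat2 for alignment, with Btau_5.0.1 as the genome, and the authors deposited raw counts per gene and library. The annotation, counter, strand setting and Hisat2 version were not given in the sources used here. Deposited comparison tables hold the authors' own group signals, log2 fold changes and FDR values, and the deposited miRNA counts come from 1 pool per age. Neither was used. There were 0 further columns of sample values.

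All 30983 genes were fitted together in R 4.3.3 with edgeR 4.0.16 by its robust quasi-likelihood method, after filterByExpr and TMM scaling. Of these, 28656 had a count and 19972 passed the filter. Standard errors were taken as the fold change (log2) divided by the root of the F statistic. Alternatives used limma 3.58.1 and DESeq2 1.42.0. Summaries were made in Python 3.11.15 with pandas 2.3.3 and scipy 1.17.1. The fit was tested on simulated data in which few genes changed, balanced between the directions. That simulation cannot test the scaling under a change as broad as the one in these data. Shares scaled by transcript length had been planned, but lengths were not used here, so shares are of reads. Gene overlaps and names are from RefSeq (ARS-UCD2.0), another build than that of the counts, so no coordinates are given.

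The 10 members and the gene lists were chosen with earlier results of these data known. Named genes were all members, per pathway list the 4 called genes that changed most and up to 2 called the other way, and for each receptor the 3 genes of most similar profile. Receptor pairs and the genes said to be so were added after values were seen. Counting intervals cover counting error only.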

Additional observations from a re-analysis of the deposited data

How the results depend on the processing

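Alternatives were other scalings, DESeq2, limma-voom, other count filters, a block for the replicate number, leaving out each library, glmTreat, dropping the fold threshold and, chosen after seeing the data, leaving out both immature replicates 1 and 3. The number of members called lower, 5, ran from 4 to 7 and the number called higher, 0, from 0 to 1 with 1 library left out. The 1 was FGF9 without mature replicate 3, which also gave the 4, and the 7 came without immature replicate 2. Of 119 values of the 7 tested members 111 stayed on their side of the threshold, 2 (both FGFR3) lost the call and 6 (5 of FGFR2, 1 of FGF9) gained it, and 0 changed direction. FGFR3 lost its call in glmTreat (adjusted p = 0.074). Without a filter FGF10 was at −2.37 (edgeR adjusted p = 0.0481), and it was called without immature replicate 2 (−2.98, adjusted p = 0.00281) and not without mature replicate 1 (−2.03, adjusted p = 0.147). Of 628 values of the named pathway genes 623 kept their side and 0 changed direction. ETV4, FLRT3 and NDST4 lost the call in glmTreat and FLRT3 and DMRT1 without both immature replicates 1 and 3. WNT4 had no adjusted p in DESeq2. The pathway counts ran from 42 to 47 lower and from 11 to 13 higher with 1 library left out. They were 38 lower and 10 higher in glmTreat and 41 lower and 11 higher in DESeq2. With upper-quartile factors they were 49 lower and 11 higher, and without the fold threshold 55 lower and 15 higher.

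Nothing in the labels says that the replicate numbers pair animals, and same-numbered libraries did not deviate together (correlations −0.03, −0.02 and −0.01). With the replicate block 5 members were called lower and 0 higher, and no call of a member changed.

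With 1 library left out, the age difference in the share of FGFR4 ran from −0.015 to 0.273 percentage points, that of FGF2 from −11.2 to 1.13 and that of FGF10 from −0.557 to 0.0916. The share of FGF10 turned without immature replicate 1 and, at 0.00456, without mature replicate 1. The differences of the other shares and the ligand to receptor ratio kept their sign. The length-scaled shares that had been planned were not run. The depth of at most 15846257 counts per library limits FGF7, FGF10 and FGF18, at 37 or fewer counts per group.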
